A study of Mus musculus with 6 samples.

Results

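The collagen gene family was examined in peak lists of ATAC-seq, an assay that marks open chromatin by letting a transposase insert adapters there. The cells were an immortalised mouse line of atrioventricular cushion mesenchyme, the embryonic source of heart valves. The members were RefSeq's protein-coding genes whose symbol is Col, a number, the letter a and a number, and the rule found 44 of 21887 protein-coding genes. Cells of the high-glucose group (HG, 3 libraries) spent 48 h at 25 mM glucose, and cells of the normal-glucose group (NG, 3 libraries) at 5.5 mM. All cells were of passage 6, came from animals of the strain H-2Kb-tsA58 transgenic, which carries a temperature-sensitive large T antigen under an inducible promoter, and were grown in DMEM with 10% serum. The design asks how glucose bears on the open chromatin of these cells. Because the line is immortalised, its collagen chromatin is that of a cultured model and not of an embryonic valve.

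The HG lists held 22149, 25013 and 22589 peaks on nuclear chromosomes for replicates 1, 2 and 3, and the NG lists held 24255, 52 and 40342. NG replicate 2, with 52 peaks and none near a collagen gene, entered no comparison, so 3 HG and 2 NG libraries were compared. No labels say that replicates came from separate cultures, so p-values here reflect only how far these libraries scatter, and that scatter may be technical. The lists hold no read counts and the depth is unknown, so a gene was scored by whether a list held a peak. A missing peak means no call at that library's depth, not closed chromatin, and fewer cells with an open site cannot be told apart from less opening per cell.

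Collagens are secreted or membrane proteins in which 3 chains wind into a triple helix. Fibrillar collagens form the load-bearing fibrils of connective tissue, type IV forms the sheet of basement membranes, type VI forms beaded filaments around cells, and FACIT collagens (fibril-associated, with interrupted helices) sit on fibril surfaces. Endocardial cushions turn from a loose, hyaluronan-rich jelly into valve leaflets while their mesenchymal cells lay down fibrillar collagen. Most fibroblast-like cells transcribe type I, III, V and VI genes, whereas type II, IX and XI genes are known from cartilage and type X from hypertrophic cartilage.

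The promoter windows that carry the start-site results are shown first, each from 250 bases before to 50 bases after the RefSeq start (GRCm38.p6, the coordinates of mm10), 5′ to 3′ on the gene's strand. Capitals mark CCAAT (the NF-Y box), GGGCGG (the Sp1 box), TATAAA (the TATA box) and TGANTCA (the AP-1 site), on either strand. Col5a1 (chr2:27886175-27886474, plus strand), Col6a1 (chr10:76725995-76726294, minus strand), Col6a2 (chr10:76623355-76623654, minus strand) and Col16a1 (chr4:130047590-130047889, plus strand) are the 4 windows with a peak in all 5 libraries. Col4a2 (chr8:11312555-11312854, plus strand) lies over the divergent start it shares with Col4a1, with a peak in 4 libraries. Col3a1 (chr1:45311288-45311587, plus strand) belongs to the only collagen gene with a start peak in both NG and no HG library. Col1a2 (chr6:4505368-4505667, plus strand) had no peak in any library.
Col5a1: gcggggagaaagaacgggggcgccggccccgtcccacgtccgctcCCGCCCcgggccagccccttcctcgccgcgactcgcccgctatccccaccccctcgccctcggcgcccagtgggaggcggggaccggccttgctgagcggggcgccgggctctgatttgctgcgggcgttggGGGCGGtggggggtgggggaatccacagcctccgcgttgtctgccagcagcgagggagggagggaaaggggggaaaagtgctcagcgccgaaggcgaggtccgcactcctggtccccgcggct
Col6a1: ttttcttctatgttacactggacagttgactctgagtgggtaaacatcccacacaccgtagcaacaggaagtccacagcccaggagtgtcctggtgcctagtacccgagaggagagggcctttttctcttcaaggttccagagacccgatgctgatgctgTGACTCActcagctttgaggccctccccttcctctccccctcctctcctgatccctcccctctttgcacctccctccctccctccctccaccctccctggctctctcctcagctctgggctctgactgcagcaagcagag
Col6a2: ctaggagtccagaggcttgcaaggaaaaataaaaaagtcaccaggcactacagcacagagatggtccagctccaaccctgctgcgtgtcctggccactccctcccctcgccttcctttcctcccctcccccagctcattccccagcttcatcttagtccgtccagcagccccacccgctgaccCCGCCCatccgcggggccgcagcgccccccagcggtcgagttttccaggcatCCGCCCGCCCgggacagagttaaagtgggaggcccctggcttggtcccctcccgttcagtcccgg
Col16a1: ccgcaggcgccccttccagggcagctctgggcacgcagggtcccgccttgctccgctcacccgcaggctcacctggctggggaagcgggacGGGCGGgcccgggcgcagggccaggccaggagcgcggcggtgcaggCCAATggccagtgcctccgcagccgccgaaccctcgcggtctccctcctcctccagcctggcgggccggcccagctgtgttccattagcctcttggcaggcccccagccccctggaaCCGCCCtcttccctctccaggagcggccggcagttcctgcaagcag
Col4a2: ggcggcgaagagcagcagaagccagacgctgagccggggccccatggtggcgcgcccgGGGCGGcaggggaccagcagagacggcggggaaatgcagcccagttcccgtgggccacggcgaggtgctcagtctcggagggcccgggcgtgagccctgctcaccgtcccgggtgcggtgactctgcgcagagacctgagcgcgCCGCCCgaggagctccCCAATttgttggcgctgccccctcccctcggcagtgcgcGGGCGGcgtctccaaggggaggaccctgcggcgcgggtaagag
Col3a1: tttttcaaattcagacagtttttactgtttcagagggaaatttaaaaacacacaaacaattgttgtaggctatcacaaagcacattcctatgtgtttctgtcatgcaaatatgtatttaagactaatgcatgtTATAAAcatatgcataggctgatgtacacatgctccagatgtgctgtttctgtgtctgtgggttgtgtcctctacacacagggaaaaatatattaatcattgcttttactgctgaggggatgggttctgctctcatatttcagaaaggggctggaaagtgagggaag
Col1a2: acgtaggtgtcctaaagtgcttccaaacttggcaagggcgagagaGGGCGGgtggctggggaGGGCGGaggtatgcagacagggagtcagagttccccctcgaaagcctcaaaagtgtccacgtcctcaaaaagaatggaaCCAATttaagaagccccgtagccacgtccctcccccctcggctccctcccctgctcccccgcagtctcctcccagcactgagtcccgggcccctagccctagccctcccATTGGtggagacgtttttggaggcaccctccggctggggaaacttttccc

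Most collagen genes had a peak in the gene or within 10 kb of it in all 5 libraries, but few had a start peak in all 5. A gene was scored over its body and 10 kb either side, and 25 of 44 collagen genes (56.8%) had a peak there in all 5 libraries, against 53.2% of all protein-coding genes. That share is near the background. Collagen genes are long, with a median of 114.4 kb against 17.2 kb for all genes. Among genes of at least 100 kb, 14 of 26 collagen genes (53.8%) had a peak in all 5 libraries, against 67% of all such genes, and among shorter genes 11 of 18 (61.1%), against 51.5%. One gene, Col10a1, the type X chain of hypertrophic cartilage, had no peak in any library (2.27% of members, against 27.6% of all genes).

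The start of a gene was scored within 1 kb of the RefSeq start for 35 members, and within 1 kb of either gene end for the 9 members with no strand in the reference used. A peak lay there in all 5 libraries for 5 of 44 collagen genes (11.4%), against 37.2% of all genes. These were Col5a1 and Col5a2, chains of the type V collagen that sets fibril diameter, Col6a1 and Col6a2, chains of type VI, and Col16a1, a FACIT. Without HG replicate 1 the count was 8, with Col1a1, Col4a1 and Col4a2 added, and the share of all genes at that setting is not given. Among the 35 with a RefSeq start the count was 4 (11.4%), against 38.6% of all genes with one. For 28 collagen genes (63.6%) no library had a start peak, against 46.8% of all genes.

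**Figure D1:**
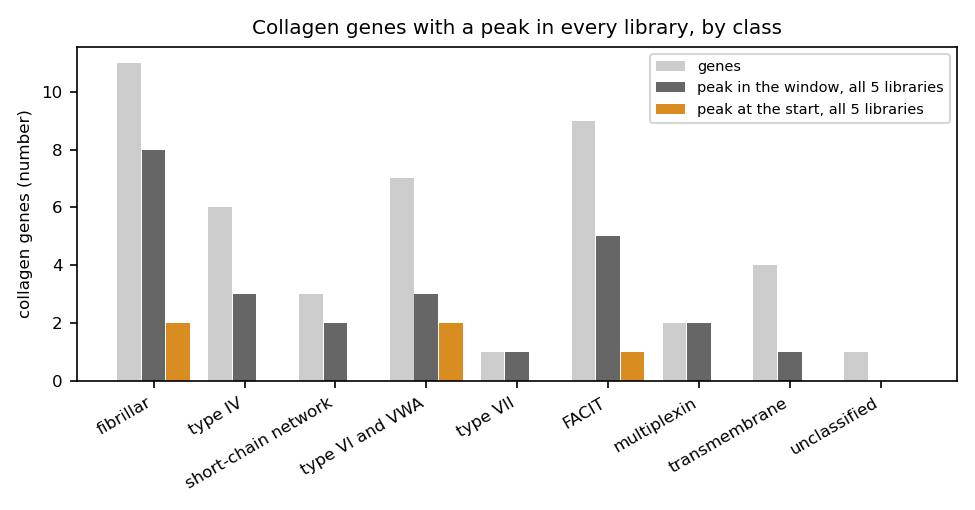
Number of collagen genes per structural class (light grey bars), with a peak in the gene or 10 kb either side in all 5 libraries (dark grey), and with a peak at the start in all 5 libraries (orange). The fibrillar class had 8 of 11 genes with a window peak and 2 with a start peak, and no type IV, short-chain, type VII, multiplexin or transmembrane gene had a start peak in all 5.

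By class, a window peak in all 5 libraries was found for 8 of 11 fibrillar genes, 3 of 6 type IV, 2 of 3 short-chain network, 3 of 7 type VI and related genes, 5 of 9 FACIT, 2 of 2 multiplexin and 1 of 4 transmembrane genes. The single type VII gene had one and the single unclassified gene, Col26a1, did not. Overlapping peaks of the 5 lists were merged into regions, and 167 of 49048 regions lay in collagen windows. Over summed window length, collagen genes held 2.70 regions per 100 kb, against 3.39 for all genes, and 0.506 regions per 100 kb that were present in all 5 libraries, against 1.08. The multiplexins were at 5.77 regions per 100 kb, the short-chain collagens at 4.89 and the transmembrane collagens at 1.43.

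**Figure D2:**
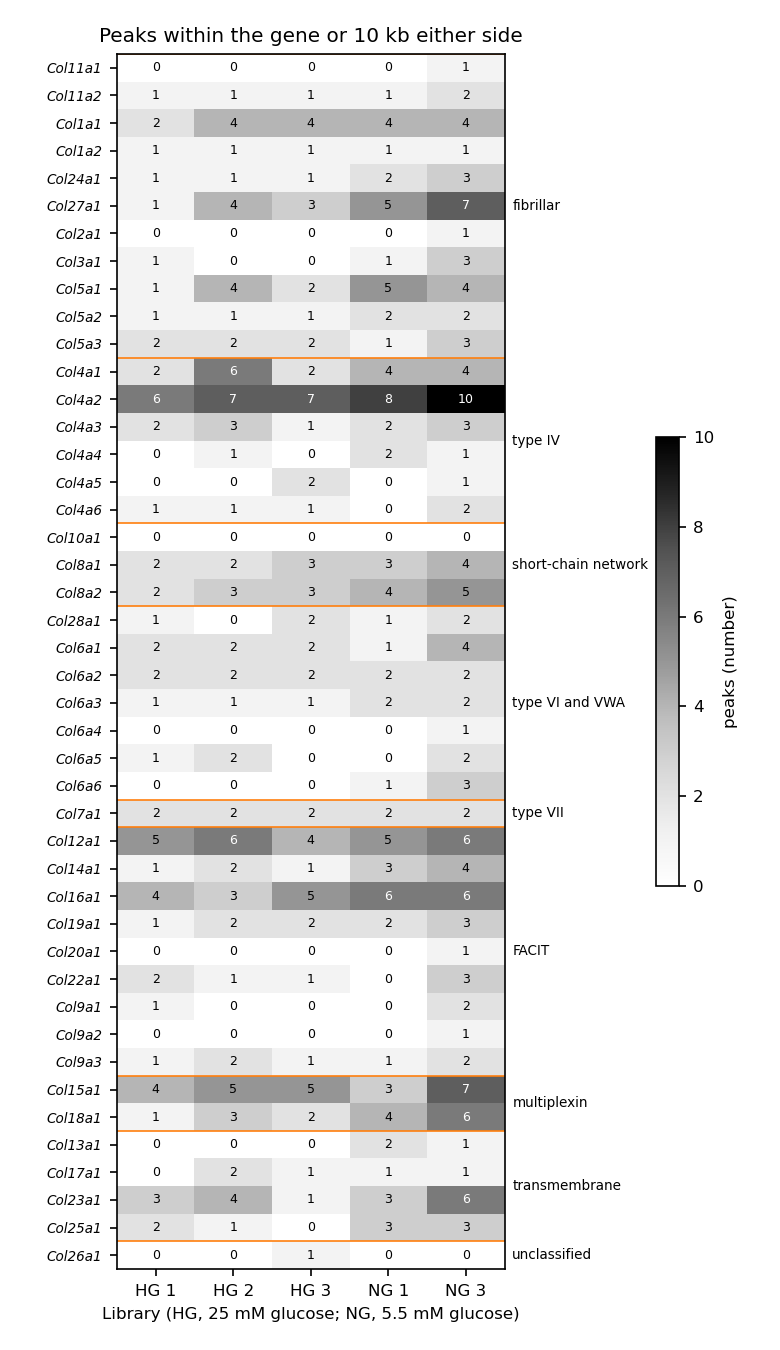
Number of peaks in the gene or 10 kb either side for each of the 44 collagen genes (rows, by class) in each library (columns, HG left of NG), with darker cells for more peaks. Col4a2 had the highest count in every library, 6 to 10, and Col10a1 was at 0 throughout.

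Of the fibrillar genes, Col1a1, which encodes the main chain of type I collagen, had 2, 4 and 4 peaks in HG libraries and 4 and 4 in NG libraries. Its window held 16.3 regions per 100 kb, the highest density of the 44 genes. A region outside the gene, centred at −7252 bp from its lower-coordinate end (chr11:94928788-94929155), was present in all 5 libraries. The authors' −log10 p ranks peaks within a list, and there the region stood at percentile 66.4, 75.6 and 64.5 of HG lists and 94.8 and 91.1 of NG lists. Such ranks come from lists of different length and cannot measure a change between libraries. A second region present in all 5, beyond the other end of the gene (chr11:94958051-94958482), stood at percentile 41.1, 62.1 and 65.6 in HG lists and 44.3 and 68.8 in NG lists. The region over the lower-coordinate gene end (chr11:94936126-94936363) was present in HG replicates 2 and 3 and both NG libraries, and lacked a call in HG replicate 1.

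Col1a2, the partner chain of type I collagen, had 1 peak in each library and none at its start. That peak (chr6:4503212-4503425) was centred at −2299 bp from the RefSeq start, at percentile 65.1, 60.5 and 55.4 in HG lists and 79.1 and 78.5 in NG lists. Col3a1, the type III chain that mixes into type I fibrils, had 1, 0 and 0 peaks in HG libraries and 1 and 3 in NG libraries. Its start region (chr1:45311576-45311695) was listed in both NG libraries, at percentile 30.6 and 44.4, and in no HG library. Its centre lay 97 bp downstream of the start, and a peak of 1 of these 2 libraries reached into the 300-base window printed above.

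Col5a1 had 1, 4 and 2 peaks in HG libraries and 5 and 4 in NG libraries. The peak at its start (chr2:27886148-27886470) was in all 5 lists, with summits between −163 and −42 bp, and stood at percentile 50.4, 79.8 and 72.3 in HG lists and 80.8 and 67.8 in NG lists. Col5a2, which lies next to Col3a1 on chromosome 1, had 1 peak in each HG library and 2 in each NG library. Its shared peak lay over the higher-coordinate gene end (chr1:45502971-45503221). Col5a3, the third type V chain, had 2, 2 and 2 peaks in HG libraries and 1 and 3 in NG libraries, and its region present in all 5 lay 54104 bp from the start, beyond the gene's other end.

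Col27a1, a fibrillar collagen known from cartilage, had 1, 4 and 3 peaks in HG libraries and 5 and 7 in NG libraries, yet none of its 11 regions was in all 5. Col24a1 had 1 in each HG library and 2 and 3 in NG libraries, and Col11a2 had 1 in every library except NG replicate 3, with 2. The shared region in the Col11a2 window lay at the ends of Rxrb and Slc39a7. Col2a1, the main cartilage chain, and Col11a1 had 1 peak each, in NG replicate 3, the longest list.

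Type IV genes lie in head-to-head pairs. Col4a1 and Col4a2, the chains of nearly all basement membranes, start on opposite strands of chromosome 8, at 11312826 (minus) and 11312805 (plus). There 2 adjoining regions were called, 1 over both starts (chr8:11312796-11313031) and 1 at lower coordinates than both (chr8:11312582-11312794). A peak of either was found in every library except HG replicate 1. Col4a1 had 2, 6 and 2 peaks in HG libraries and 4 and 4 in NG libraries, and Col4a2 had 6, 7 and 7 in HG libraries and 8 and 10 in NG libraries. No Col4a1 region was in all 5 libraries. Col4a2 had 3 such regions, all inside the gene, and the one centred 69763 bp from the start (chr8:11382350-11382787) stood at percentile 79.3, 86.0 and 89.2 in HG lists and 64.0 and 84.1 in NG lists.

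The other pairs encode the chains of kidney, eye and smooth-muscle basement membranes and had fewer peaks. Col4a3 had 2, 3 and 1 peaks in HG libraries and 2 and 3 in NG libraries, with its shared region at an end of the neighbouring gene Mff. Col4a4 had 0, 1 and 0 in HG libraries and 2 and 1 in NG libraries. Col4a5 had 0, 0 and 2 in HG libraries and 0 and 1 in NG libraries, while Col4a6 had 1, 1 and 1 in HG libraries and 0 and 2 in NG libraries. Each of these last 3 genes lacked a peak in at least 1 of the 5 libraries.

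**Figure D3:**
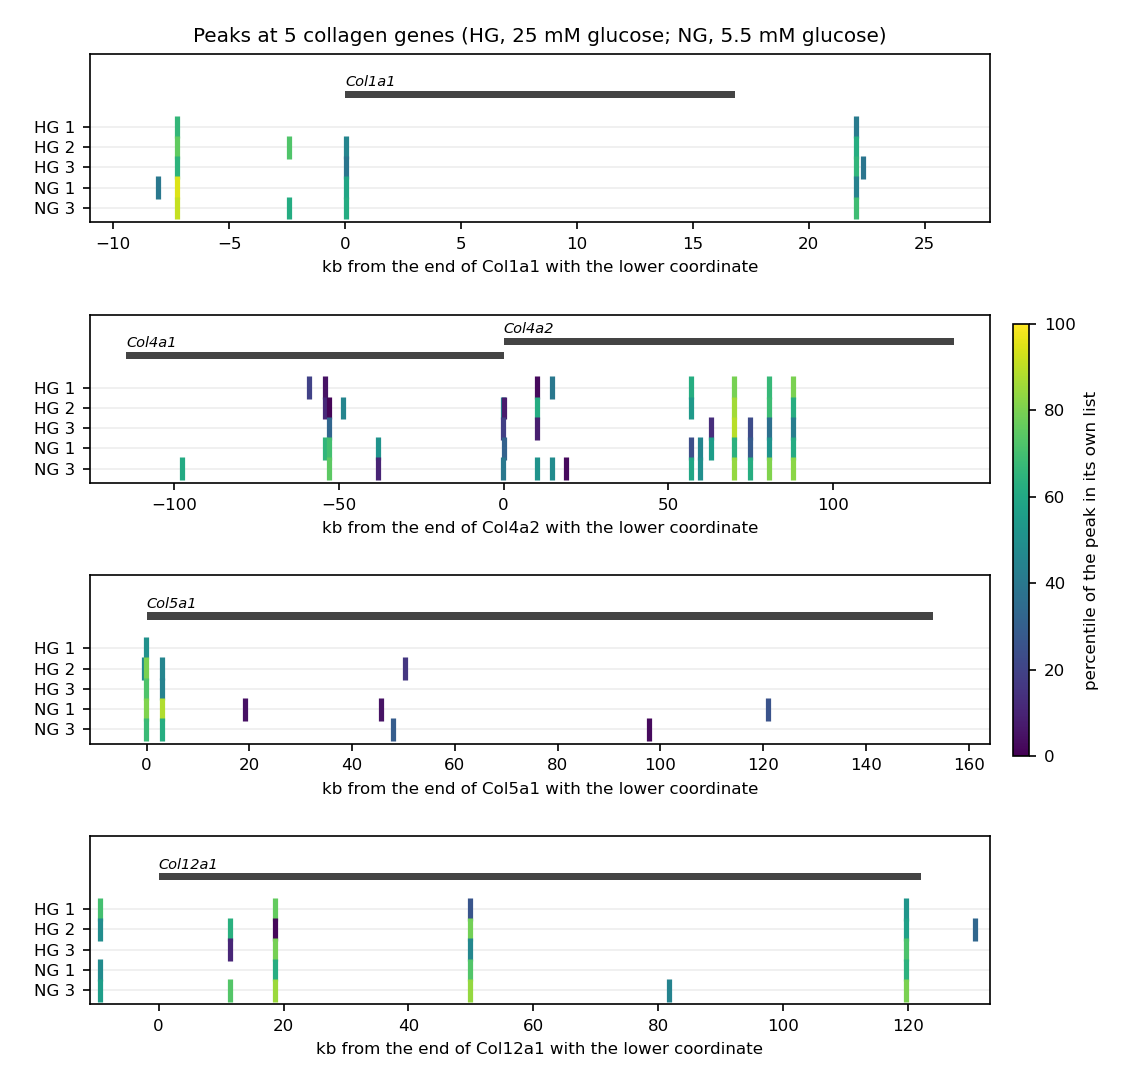
Peaks (vertical ticks, 1 row per library, HG above NG) around Col1a1, the Col4a1 and Col4a2 pair, Col5a1 and Col12a1, by distance in kb from the lower-coordinate end of the gene (dark bars, genes), coloured by the percentile of the authors' −log10 p in the peak's own list. Regions in all 5 libraries lie outside both ends of Col1a1, inside Col4a2 and Col12a1, and at the lower-coordinate end of Col5a1.

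The short-chain network collagens form hexagonal lattices. Col8a1 had 2, 2 and 3 peaks in HG libraries and 3 and 4 in NG libraries, and Col8a2 had 2, 3 and 3 in HG libraries and 4 and 5 in NG libraries. Each had 2 regions in all 5 libraries, and both Col8a1 regions lay inside the gene. Of the collagen regions in all 5 libraries, the one whose weakest rank was highest lay in the Col8a2 window, at percentile 92.3, 95.6 and 94.3 in HG lists and 95.98 and 97.3 in NG lists. It lay at the ends of Adprhl2 and Tekt2 (chr4:126321658-126321830), not at the start of Col8a2, which had a peak in NG replicate 3 alone.

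Among the type VI genes, Col6a1 and Col6a2 had the start peaks. Col6a2 had 2 peaks in every library, and both of its regions were in all 5. The one at the start (chr10:76623368-76623635) stood at percentile 58.6, 69.1 and 32.2 in HG lists and 81.0 and 78.2 in NG lists. The one inside the gene, 20456 bp from the start, stood at 80.9, 86.0 and 69.0 in HG lists and 94.1 and 86.4 in NG lists. Col6a1 had 2, 2 and 2 peaks in HG libraries and 1 and 4 in NG libraries, and its start peak ranked lower, at percentile 37.3, 48.2 and 30.6 in HG lists and 52.1 and 62.2 in NG lists.

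Col6a3, the third chain of the classical type VI trimer, had 1 peak in each HG library and 2 in each NG library, none of them at its start and none of its 3 regions in all 5. Col6a4, Col6a5 and Col6a6, alternatives to that chain, lie side by side on chromosome 9 and were sparse. Col6a4 had a peak in NG replicate 3 only, Col6a5 had 1, 2 and 0 in HG libraries and 0 and 2 in NG libraries, and Col6a6 had none in HG libraries and 1 and 3 in NG libraries. Col28a1, a related collagen with von Willebrand A domains, had 1, 0 and 2 in HG libraries and 1 and 2 in NG libraries. Col7a1, the anchoring fibril of skin, had the same 2 regions in every library, 1 inside the gene and 1 downstream at a start of Pfkfb4, the second at percentile 62.1, 80.4 and 85.9 in HG lists and 77.7 and 91.7 in NG lists.

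Among FACIT genes, Col12a1, which bridges type I fibrils in tendon and other dense tissue, had 5, 6 and 4 peaks in HG libraries and 5 and 6 in NG libraries. It had 3 regions in all 5 libraries, all inside the gene, and none of its peaks lay at a gene end. The region nearest an end (chr9:79718476-79718942) stood at percentile 52.2, 56.5 and 71.5 in HG lists and 63.9 and 80.0 in NG lists. Rank within a group could differ widely: the region at chr9:79617416-79617712 stood at percentile 76.0, 1.83 and 79.2 in HG lists and 62.3 and 84.9 in NG lists. Col16a1 had 4, 3 and 5 peaks in HG libraries and 6 and 6 in NG libraries, with the start peak at percentile 46.9, 77.1 and 18.7 in HG lists and 79.7 and 71.7 in NG lists. Col14a1, a relative of Col12a1, had 1, 2 and 1 in HG libraries and 3 and 4 in NG libraries, none at a gene end.

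Col19a1 had 1, 2 and 2 peaks in HG libraries and 2 and 3 in NG libraries, and Col22a1 had 2, 1 and 1 in HG libraries and 0 and 3 in NG libraries. Of the type IX chains, which coat cartilage fibrils, Col9a1 had 1, 0 and 0 in HG libraries and 0 and 2 in NG libraries, and Col9a2 had 1, in NG replicate 3. The third, Col9a3, had 1, 2 and 1 in HG libraries and 1 and 2 in NG libraries, with the shared region at an end of Ogfr. Col20a1 had 1 peak, in NG replicate 3.

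The multiplexins are basement membrane proteoglycans whose ends can be cut to fragments that inhibit vessel growth. Col15a1 had 4, 5 and 5 peaks in HG libraries and 3 and 7 in NG libraries, with 3 regions in all 5 inside the gene and none at its start. Col18a1 had 1, 3 and 2 in HG libraries and 4 and 6 in NG libraries, and none of its 8 regions was in all 5. Of the transmembrane collagens, Col23a1 had 3, 4 and 1 in HG libraries and 3 and 6 in NG libraries, with the region in all 5 at an end of the next gene, Phykpl. Col25a1 had 2, 1 and 0 in HG libraries and 3 and 3 in NG libraries, Col17a1, of the hemidesmosome, had 0, 2 and 1 in HG libraries and 1 and 1 in NG libraries, and Col13a1 had none in HG libraries and 2 and 1 in NG libraries. Col26a1 had 1 peak, in HG replicate 3.

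The 32 collagen regions in all 5 libraries (19.2% of 167, against 25.1% of all regions) lay mostly away from starts. Of the 32, 5 lay at the start or gene end of a collagen gene, 5 at an annotated end of a gene outside the family and 22 at neither. One of those 22, the region downstream of Col7a1, lay at a RefSeq start inside the annotated span of the next gene, Pfkfb4. Within 1 kb of the RefSeq start of any gene, or of either end of a gene with no strand in the reference used, lay 11 of the 32 (34.4%), against 60.7% of all regions in all 5 libraries. Inside collagen genes lay 118 regions, 17 of them in all 5 libraries and 53 in a single one. The regions in all 5 were of middle rank, with a median percentile of 65.8, 62.6 and 57.9 in HG lists and 63.9 and 80.1 in NG lists, against 70.9, 74.2 and 71.1 in HG lists and 72.4 and 83.8 in NG lists for all such regions. Another 66 collagen regions (39.5%, against 39.7% of all regions) were in 1 library.

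Between the glucose conditions, the collagen share of the lists was lower in HG libraries than in NG libraries by an amount that the design cannot call. Collagen windows held 60, 78 and 65 peaks in HG libraries and 86 and 129 in NG libraries. Per 1000 listed peaks this was 2.71, 3.12 and 2.88 in HG libraries and 3.55 and 3.198 in NG libraries, so the groups did not overlap. The 95% Wilson intervals, which cover counting error only, were 2.11 to 3.49, 2.4996 to 3.89 and 2.26 to 3.67 in HG libraries and 2.87 to 4.38 and 2.69 to 3.80 in NG libraries, and all overlapped. The means were 2.90 ± 0.206 in HG libraries (SD, n = 3) and 3.37 ± 0.246 in NG libraries (SD, n = 2), a difference of −0.470 per 1000 (two-sided exact permutation test, p = 0.2, the smallest that 3 against 2 libraries allow). With every list shortened to its 22149 best-ranked peaks the difference was −0.467.

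The number of collagen genes with a peak was highest in the longest list. It was 32, 31 and 31 in HG libraries and 32 and 42 in NG libraries, with the 42 in NG replicate 3, whose list held 40342 peaks. Of all protein-coding genes 60.4%, 62.5% and 61.1% had a peak in HG libraries and 61.2% and 69.9% in NG libraries, so NG replicate 3 was highest there too. The means were 31.3 ± 0.577 in HG libraries (SD, n = 3) and 37 ± 7.07 in NG libraries (SD, n = 2), a difference of −5.67 genes (two-sided exact permutation test, p = 0.4). At equal list length the counts were 32, 29 and 30 in HG libraries and 32 and 28 in NG libraries, a difference of 0.333. Without NG replicate 3 the difference was −0.667, without NG replicate 1 it was −10.7, and at a −log10 q of at least 5 it was −9.83. Collagen genes with a start peak numbered 6, 9 and 12 in HG libraries and 12 and 15 in NG libraries (difference −4.5, two-sided exact permutation p = 0.4). Of all genes 43.1%, 46.0% and 44.8% had one in HG libraries and 43.9% and 51.2% in NG libraries.

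**Figure D4:**
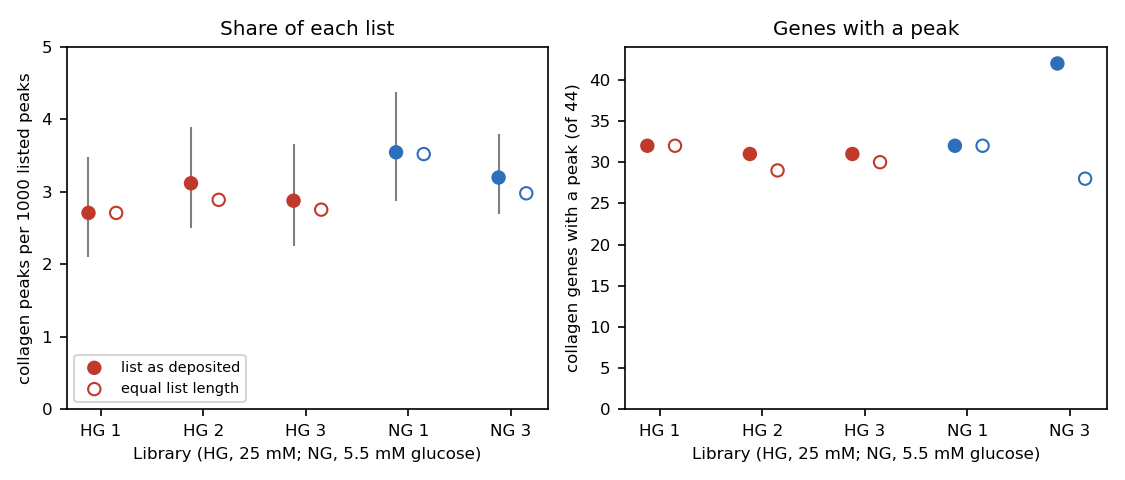
Left, collagen peaks per 1000 listed peaks with 95% Wilson intervals (vertical lines); right, number of the 44 collagen genes with a peak. Filled points are the lists as deposited and open points lists of equal length (HG red, NG blue); at equal length the HG libraries stay between 2.71 and 2.89 per 1000 and the NG libraries at 2.98 and 3.52, while the gene counts overlap.

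By class, fibrillar windows held 11, 18 and 15 peaks in HG libraries and 22 and 31 in NG libraries. Per 1000 listed peaks the fibrillar means were 0.627 ± 0.116 in HG libraries (SD, n = 3) and 0.838 ± 0.0980 in NG libraries (SD, n = 2), a difference of −0.211 with no overlap (two-sided exact permutation p = 0.2, 0.64 after Benjamini-Hochberg adjustment over 8 classes). With only peaks of a −log10 q of 5 or more, the fibrillar difference was −0.0218. FACIT windows did not overlap either, at 0.677, 0.640 and 0.620 per 1000 in HG libraries and 0.701 and 0.694 in NG libraries (difference −0.0519, two-sided exact permutation p = 0.2, adjusted 0.64), and the difference was −0.278 at that stricter threshold. The other 6 classes overlapped between conditions. The transmembrane difference was −0.124 and the type IV difference −0.0169, and type VII, with 2 peaks in every library, differed by 0.0202. At equal list length both separations were lost, with 11, 15 and 15 fibrillar peaks in HG libraries and 20 and 15 in NG libraries, and 15, 13 and 14 FACIT peaks in HG libraries and 16 and 15 in NG libraries. At that length 3 other classes did not overlap. Transmembrane peaks numbered 5, 5 and 1 in HG libraries and 9 and 7 in NG libraries, and type IV peaks 11, 11 and 11 in HG libraries and 15 and 12 in NG libraries. Type VI and related genes ran the other way, with 7, 7 and 7 peaks in HG libraries and 6 and 5 in NG libraries (two-sided exact permutation p = 0.2 for each of the 3, unadjusted). Any class without overlap gets this p, the smallest that 3 against 2 libraries allow, so no class difference can be called. How often other groups of genes separate was not examined.

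No collagen gene had a peak in every HG and no NG library, against 0.0366% of all genes. Peaks in both NG and no HG library were found for 2 of 44 (4.55%, against 1.02% of all genes), namely Col6a6 and Col13a1. Col13a1 is a transmembrane collagen of neuromuscular and other cell contacts. Without NG replicate 1 the NG count was 7, with Col11a1, Col20a1, Col2a1, Col6a4 and Col9a2 added. Each added gene had its peak in NG replicate 3 alone, the longest list. Of all genes 69.9% had a peak in NG replicate 3, against 61.2% in NG replicate 1. Without NG replicate 3 the HG count was 2, Col22a1 and Col4a6. The share of all genes called is not given for these settings. At equal list length Col6a6 remained and Col13a1 did not, when 0.411% of all genes had peaks in every HG and no NG library and 0.375% the reverse. With 25 kb either side Col13a1 remained and Col6a6 did not, and at a −log10 q of at least 5 Col17a1 stood in place of Col13a1 beside Col6a6.

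Of the 167 collagen regions none was in every HG and no NG library (0.167% of all regions), and 8 (4.79%, against 3.73% of all regions) were in both NG and no HG library. They lay at the starts of Col3a1 and Col8a1 and inside Col13a1, Col24a1, Col27a1, Col4a1, Col4a2 and Col6a6. The Col8a1 start region was among the weakest peaks of both lists, at percentile 4.52 and 5.65, and HG replicate 3 had a separate peak there, centred at −632 bp. Without HG replicate 2 the count of 8 was 13, without NG replicate 1 it was 45 and without NG replicate 3 it was 19. The share over all regions is not given for these settings. NG replicate 3 alone held 37 of the 66 collagen regions in a single library, and 11560 of 19459 such regions in all. NG replicate 1 alone held 11 and 2077. At equal list length 2 of the 8 were left, inside Col4a2 (chr8:11372178-11372300) and inside Col6a6 (chr9:105807446-105807605). At that length 1.62% of all regions were in both NG and no HG library and 0.956% in every HG and no NG library. At the start, Col3a1 was the 1 gene of 44 (2.27%, against 0.653% of all genes) with a peak in both NG and no HG library, and none showed the reverse (0.0685% of all genes). At equal list length NG replicate 3 held no peak in the Col3a1 window.

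Genes that modify, export, cut, cross-link or bind collagen were scored in the same way. Of 41 such partner genes 35 had a window peak in all 5 libraries, where 53.2% of all genes had one, and 19 had a start peak in all 5, where 37.2% of all genes had one. The same counts were 25 and 5 of the 44 collagen genes, and the difference between the lists was not tested. All 9 genes of prolyl and lysyl hydroxylation, which stabilises the helix and prepares cross-links, had a window peak in all 5, the first 6 in the list being P4ha1, P4ha2, P4ha3, P4hb, P3h1 and Crtap, and 6 of the 9 had a start peak in all 5. So had 4 of 5 genes of folding and export, 2 of 7 procollagen processing genes, 2 of 5 cross-linking enzymes, 2 of 8 fibril partners and 3 of 7 collagen receptors. Loxl4, a lysyl oxidase, and Lum, the fibril proteoglycan lumican, had no peak in any library. None of the 41 had window peaks in all libraries of 1 condition and none of the other. Over all genes 1.02% had peaks in both NG and no HG library, and 0.0366% in every HG and no NG library.

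The cell type was checked by the same scoring. Of 12 mesenchymal and cushion markers 8 had a start peak in all 5 libraries, where 37.2% of all genes had one. The 8 were Vim, Fn1, Cdh2, Cdh11, Snai1, Snai2, Sox9 and Tbx20. Fn1 and Postn are also in the partner list. Pdgfra and Pdgfrb had no start peak in any library. No endothelial, cardiomyocyte or epithelial marker of 6 each had a start peak in any library, and of these Cldn5, Myh6, Myh7 and Epcam had no peak at all. The others had window peaks, Cdh1 in all 5 libraries, Pecam1, Tnnt2, Actn2 and Krt18 in 4 and the rest in 1 to 3. Over all genes 46.8% had no start peak in any library and 27.6% no window peak. Of 6 blood markers Spi1, and of 6 chondrocyte markers Matn3, had a start peak in all 5. Cd68 of the blood and Sox5 of the chondrocyte markers also had a window peak in all 5, where 53.2% of all genes had one. Of the blood markers Ptprc and of the epithelial markers Cldn4 had window peaks in both NG and no HG library, and the part of other cells in the collagen values was not tested.

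Promoter sequence was available for 38 windows of 35 collagen genes. The observed over expected ratio of CpG, which is high in CpG islands, had a median of 0.456 in collagen windows, against 0.567 in all 21263 windows of the same length. The 15 collagen windows with a peak in any library had a median ratio of 0.587 and the 23 without one 0.352. Over all promoters the medians were 0.802 for windows with a peak in any library and 0.257 for those with none. For windows with a peak in all 5 libraries the median was 0.824 over all promoters and 0.572 over collagen windows. Of the 4 collagen windows with a peak in all 5, Col5a1 was at 0.809, Col16a1 at 0.587, Col6a2 at 0.557 and Col6a1 at 0.134. The Col6a1 window was thus CpG-poor, and Col3a1, at 0, held no CpG and was 37.7% G and C. The windows of Col13a1, at 0.837, and Col25a1, at 0.860, had high ratios and no peak.

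**Figure D5:**
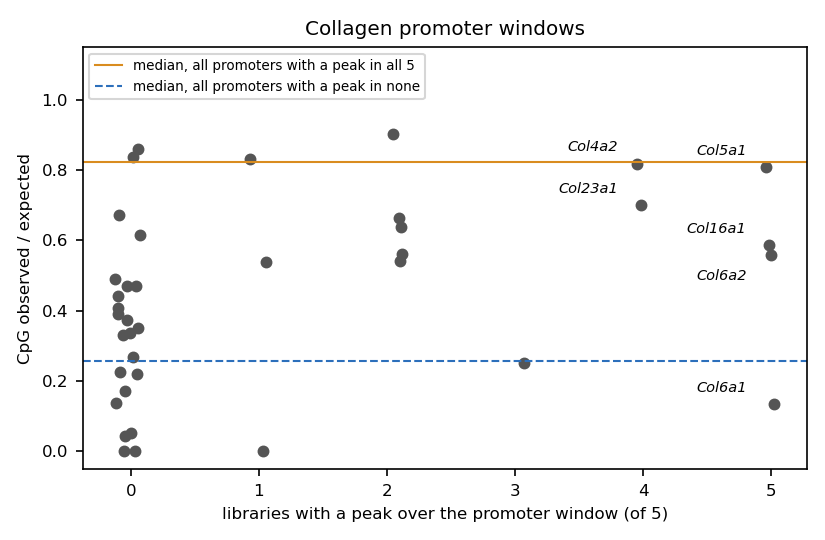
CpG observed over expected ratio of each of 38 collagen promoter windows (points, spread sideways to be visible) against the number of libraries with a peak over the window. The lines give the medians of all promoters with a peak in all 5 libraries (0.824) and in none (0.257); Col6a1 lies below the lower line with a peak in all 5.

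The 7 motifs were searched on both strands of the same windows, and a match describes letters, not a bound site. GGGCGG was in 60.5% of the 38 collagen windows, against 46.2% of all windows, and CCAAT in 34.2%, against 38.2%. TATAAA was in 13.2%, against 12.6%, and is among the capitals of Col3a1, where its first base lay at −117 from the start base. TGANTCA was in 2.63%, against 6.99%, the 1 window being that of Col6a1, whose first base lay at −90 from the start base, within the start peak. CACCTG, the E-box of Snail factors, was in 13.2%, against 19.7%, GGAATG, the TEAD site, in 13.2%, against 13.6%, and TGTGGT, the Runx site, in 7.89%, against 14.97%. The printed windows of Col5a1, Col6a2 and Col16a1 hold GGGCGG, and that of Col1a2, which holds both GGGCGG and CCAAT, had no peak.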

How the data were processed

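Each of 6 libraries was made from 54000 cells and sequenced as 50 bp paired-end reads, per the labels. The build was mm10 and the tools, named in the submitters' processing notes without role or setting, were MACS2 2.1.0, DiffBind 1.12.3, Bowtie 1.0.0, cutadapt 1.0, Picard 1.90 and SAMtools 0.1.19, with FastQC and edgeR named without a version. The transposase shift and the treatment of duplicate and mitochondrial reads are not given in the sources used here. Each library has its own deposited list. Besides the coordinates and summit of each peak, the authors deposited a −log10 p-value, a −log10 q-value, a ratio (fold over background) and a score, from their peak caller. The lowest −log10 q-value was 1.30 to 1.34 across the deposited lists. The lists used here hold peaks without counts, so depth is unknown. They end at nearly the same −log10 q-value, and whether a longer list holds weaker sites was not tested.

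Genes and promoter windows came from RefSeq (GRCm38.p6, the coordinates of mm10), which gave a start for 35 of 44 collagen genes and 17492 of 21887 in all. Lists with at least 1000 peaks entered. Peaks overlapping by at least 1 bp were merged into regions, and a peak counted for a gene when it overlapped the body or 10 kb either side. In all, 4 collagen regions lie in a pair of collagen windows and count for both genes. Group means were compared by two-sided exact permutation over the 10 splits of 5 libraries, and classes were adjusted by Benjamini-Hochberg. Named were the members that cushion mesenchyme uses most, in each class those with the most and the highest ranked regions in all 5 libraries, those with peaks in 1 condition only and those with none. All others are given by their peaks. The members, classes and gene lists were chosen with earlier results of these data known.

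Alternatives were lists of equal length, a stricter −log10 q (5 or more), all 6 libraries, other windows and overlaps, merging within 200 bp, leaving out peaks at ends of other genes, each library left out, and same-numbered libraries as pairs. Deviations of same-numbered libraries correlated at −0.0140 for number 1 and 0.0144 for number 3. With 2 NG libraries the deviations of NG replicates 1 and 3 mirror each other, so these values cannot decide whether numbers are pairs. Numbers were not taken as pairs in the main comparison. The software was Python 3.11.15, SciPy 1.17.1, pandas 2.3.3, matplotlib 3.10.9 and numpy 2.4.6. Overlaps were checked with bedtools 2.31.1, and the scoring was tested on simulated data.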

Additional observations from a re-analysis of the deposited data

How the results depend on the processing

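All 44 genes are scored from presence calls at unknown depth, so list length is the main limit. The collagen share per 1000 listed peaks kept its direction in all settings but one, at 0.654 with all 6 libraries, since normal-glucose replicate 2 lists no collagen peak, and without 1 library it ranged over −0.644 to −0.296. With 25 kb either side it was −0.354 (two-sided exact permutation p = 0.4), and the groups were no longer fully apart. All differences are high minus normal glucose. That in genes with a peak became 0.333 with lists of equal length and 6.67 with all 6 libraries, and without 1 library it ranged over −10.7 to −0.667. With all 6 libraries no gene, region or start was in all libraries, and no gene or region was specific to normal glucose (0 for each). The 25 genes with a peak in all libraries were 16 over the gene body alone. The 2 normal-glucose genes were 1 with lists of equal length and 1 with 25 kb either side, and 2 to 7 without 1 library, while high-glucose genes numbered 0 to 2. The 32 regions in all libraries were 21 at a −log10 q of at least 5 and 53 with 25 kb either side. High-glucose regions numbered 0 to 1 without 1 library. The 8 normal-glucose regions were 2 at equal length and 11 to 45 without 1 library. For the counts in this paragraph at settings other than equal list length, shares over all genes and regions are not given. Whether these changes are particular to collagen genes was not tested. The 5 genes with a start peak in all libraries were 2 at a −log10 q of at least 5, where Col16a1, Col6a1 and Col6a2 lost theirs, and 5 to 8 without 1 library.

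With same-numbered libraries 1 and 3 taken as pairs (the replicate block), the differences were −5.5 genes and −0.578 per 1000, and 1 region was specific to high and 13 to normal glucose, with high-glucose replicate 2 left out by construction. It also gave 3 normal-glucose genes, with Col4a4 added, 26 genes with a peak in all libraries, with Col28a1 added, and 35 regions in all libraries. Shares over all genes and regions are not given for these counts either. By class, reversed differences per 1000 were, for type IV, 0.00346 without high-glucose replicate 3 and 0.0568 without normal-glucose replicate 1 (lowest without 1 library −0.0907), and, for type VI and related genes, 0.0677 at equal length and 0.0133 without normal-glucose replicate 3 (lowest −0.0947). Those of type VII were −0.00918 at a −log10 q of at least 5, and of multiplexins 0.0364 there, 0.0301 at equal length and 0.00944 without high-glucose replicate 1 (lowest −0.0376). In genes with a peak, type IV was at 0.333 at equal length and 0.667 without normal-glucose replicate 3 (lowest −1.33), and FACIT at 1.33 under both (lowest −2.67). Except where list length or a left-out library makes the change by construction, the cause was not tested.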
